A study of Mus musculus with 14 samples.

Results

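The 10 genes Atm, Atr, Topbp1, Chek1, Chek2, Brca1, Trip13, Trp53, Trp63 and Trp73 encode kinases, adaptors and transcription factors of the DNA damage response and of the meiotic checkpoint. They were chosen by symbol, and all 10 were found in the deposited count tables, which hold 32667 genes for spermatogonia and 36888 genes for spermatocytes. All 10 also passed the filter on low counts in the fits reported here, and only the alternative filter at a mean of 50 counts removed a member, Trp73. The tables hold RNA sequencing counts of 14 libraries of germ cells sorted from mouse testes, with strand-specific libraries of polyadenylated RNA. The groups compared are labelled Dnmt3CKO/KO (KO) or wild type (WT), and the animals were littermates on the C57Bl6/J background according to the study's methods. DNMT3C is the DNA methyltransferase that methylates the promoters of evolutionarily young retrotransposons in the male germ line.

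Spermatogonia (Spg) of 3 KO and 3 WT libraries came from mice at postnatal day 14 and were sorted as cells negative for DAPI and beta-2-microglobulin and positive for Ep-CAM. Spermatocytes (Spc) of 4 KO and 4 WT libraries came from mice older than 20 days and were sorted by Hoechst staining of DNA. Stage, age and sorting method therefore changed together and cannot be told apart. According to an appendix legend of the study, the KO gate of spermatocytes lacked some meiotic stages and held no round spermatids. In such bulk samples fewer cells of a type and less RNA per cell cannot be told apart. No label says whether each library came from its own animal, so p-values here measure the spread between libraries, which may in part be technical. A figure legend of the study gives 3 biological replicates for both stages, while the labels list 4 Spc libraries per genotype.

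These genes act in 1 pathway with several entry points. ATM is the kinase that answers DNA double-strand breaks, and ATR, helped by its activator TOPBP1, answers single-stranded DNA. Both pass the signal to the kinases CHEK2 and CHEK1 and on to p53. In male meiosis ATM limits the number of programmed breaks, while BRCA1, TOPBP1 and ATR load onto chromosome axes that have not paired and silence the X and Y chromosomes in pachytene. TRIP13 is the ATPase that strips HORMA-domain proteins from paired axes, and the p53 family (p53, p63 and p73) controls arrest and death of damaged germ cells.

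Total counts per library, in units of 1000000 counts, ran from 46.7 to 49.3 in KO Spg, 40.6 to 47.6 in WT Spg, 44.9 to 47.2 in KO Spc and 47.6 to 53.3 in WT Spc. Dnmt3c itself, the targeted gene, had 116, 58 and 67 counts in the KO libraries of Spg and 89, 65 and 53 in WT Spg. The WT Spc libraries had 28, 11, 19 and 25 counts of it, against 55, 56, 52 and 57 for KO Spc. The counts of the targeted gene did not fall in KO, and which bases the allele lacks was not taken into account, so the counts do not check the labels. Replicates 1 and 4 of each Spc group were closer to each other (chi-square per degree of freedom 11.6 in KO and 14.9 in WT) than any other pair of the same group (129 to 286), though not within sampling noise. They were kept as separate libraries, but whether they come from separate animals is in doubt, and with each pair summed to 1 library a permutation test in Spc cannot give a p below 0.1.

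Markers of the sorted cells moved with genotype in Spc, and their part in the results on the 10 genes was not tested. Levels are CPM, TMM-scaled counts per 1000000 counts, summed over a marker list. The background of the marker counts in Spc is 28.0% of all genes called higher and 30.7% called lower. The 9 markers of pachytene and later spermatocytes summed to 170 to 413 CPM in KO Spc and 7393 to 14431 CPM in WT Spc, with 8 of 9 called lower. Ldhc had 14.5 ± 6.68 CPM in KO and 4678 ± 1614 CPM in WT (SD, n = 4 each). The 8 spermatid markers summed to 2.53 to 9.99 CPM in KO and 57.7 to 1277 CPM in WT, with 8 of 8 called lower. Peritubular and stromal markers summed to 443 to 4813 CPM in KO and 42.7 to 53.3 CPM in WT, with 6 of 6 called higher and KO replicate 3 the lowest of the KO libraries. All 5 Leydig markers and all 6 leukocyte markers were called higher as well, at 46.6 to 276 against 12.4 to 24.6 CPM and at 20.8 to 111 against 3.09 to 5.58 CPM. Of 7 Sertoli markers 1 was called higher (summed level 241 to 880 CPM in KO and 109 to 401 CPM in WT), and of 3 erythroid markers none. Within the lists closest to the sort, single markers moved in both directions, and calls were about as frequent as over all genes. The 9 spermatogonia markers summed to 721 to 1411 CPM in KO and 1059 to 1157 CPM in WT, but Ddx4, which was called lower (323 ± 50.0 CPM in KO and 978 ± 79.1 CPM in WT), made up much of that sum. Without it, the other 8 summed to 424 to 1049 CPM in KO and 80.8 to 265 CPM in WT. Leaving out Ddx4, the 1 marker of the list called lower, was a choice made after seeing the data. It favours a higher sum in KO. Zbtb16, Kit, Stra8, Dmrt1 and Uchl1 were called higher, by log2 2.43 (Uchl1) to 3.05 (Stra8). The 8 markers of early meiotic prophase summed to 1178 to 2002 CPM in KO and 1285 to 1961 CPM in WT, with Dmc1 (log2 2.88), Meiob (2.03) and Prdm9 (3.34) called higher and Spo11 (-2.06) called lower. These rises and falls stand beside log2 changes of 2.98 for Atm, 2.22 for Brca1, 2.18 for Chek2 and 2.11 for Chek1. No link between them was tested. In Spg 0 of the markers was called, against 0.0436% of all genes. The pachytene markers summed to 137 to 171 CPM in KO Spg and to 252 to 1830 CPM in WT Spg, highest in WT replicate 2. The early meiotic prophase markers summed to 1084 to 1651 CPM in KO Spg and 1551 to 1845 CPM in WT Spg. By these markers the Spg libraries cannot be read as free of meiotic cells.

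The 10 genes lie on 6 chromosomes (GRCm38, GENCODE M21). Atm is at chr9:53439149-53536740 (- strand), Atr at chr9:95857597-95951781 (+), Chek1 at chr9:36708482-36727065 (-) and Topbp1 at chr9:103305215-103350428 (+). Trp53 is at chr11:69580359-69591873 (+) and Brca1 at chr11:101488764-101551955 (-). Chek2 is at chr5:110839979-110874145 (+), Trp63 at chr16:25683763-25892102 (+), Trp73 at chr4:154056253-154140208 (-) and Trip13 at chr13:73911347-73937784 (-). Exons of Atr share 726 and 462 bases with the antisense genes 1700065D16Rik and Gm16794 and 178 bases with the small RNA gene Gm24004 on the same strand, and exons of Trp73 share 280 bases with the antisense gene Trp73os. Annotated pseudogenes of Trp53 and Topbp1 held at most 0.405% of the counts of their parent gene.

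Promoter sequence is shown for Atm, Brca1 and Chek2, the 3 genes with the largest rises in KO Spc that have promoter bases outside annotated exons. The sequences are the RefSeq reference (GRCm38.p6), read 5′ to 3′ on the strand of the gene and ending next to its first base in GENCODE. They lie at chr9:53536741-53536921 (-) for Atm, chr11:101551956-101552148 (-) for Brca1 and chr5:110839778-110839978 (+) for Chek2. Capitals mark matches to CGCANGCG, the core of the binding site of NRF1, a factor whose binding the study examined at retrotransposons, and to the CCAAT box, each searched on both strands.
Atm: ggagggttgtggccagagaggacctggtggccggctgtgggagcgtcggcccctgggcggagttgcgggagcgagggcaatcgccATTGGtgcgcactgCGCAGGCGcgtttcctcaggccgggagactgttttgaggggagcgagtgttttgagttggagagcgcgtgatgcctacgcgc
Brca1: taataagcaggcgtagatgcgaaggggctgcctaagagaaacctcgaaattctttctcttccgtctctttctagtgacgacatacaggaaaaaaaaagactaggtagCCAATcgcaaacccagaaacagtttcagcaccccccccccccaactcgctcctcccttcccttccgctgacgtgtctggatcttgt
Chek2: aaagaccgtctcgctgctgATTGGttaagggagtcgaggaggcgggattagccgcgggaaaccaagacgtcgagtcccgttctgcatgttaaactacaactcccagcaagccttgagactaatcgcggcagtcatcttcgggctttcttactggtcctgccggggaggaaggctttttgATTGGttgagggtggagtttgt

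Among the 9 genes with a promoter entry, the NRF1 core was found in the 250 bases before the start of Atm alone, at -151 and -72 from the RefSeq start (the latter reaching into an annotated exon and not printed whole), while 6.758% of 32851 promoters held it. A CCAAT box was found before Chek2 (-186 and -26), Atm (-165), Brca1 (-86) and Trp53 (-8), 4 of 9 genes, against 33.85% of all promoters. The GC box GGGCGG was found before 5 of 9 genes (Atm, Atr, Topbp1, Trip13 and Trp73) and in 32.742% of promoters. The E2F site TTTCGCGC was found before Topbp1 (0.256% of promoters), and TTTGGCGC (0.417%) and the CRE TGACGTCA (1.546%) before none of the 9. These matches are letters only and say nothing of binding.

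Per unit of exon length, the members spanned a wide range of levels. In WT Spg, mean RPKM (CPM per 1000 exon bases) was highest for Topbp1 (27.8 ± 1.69, n = 3), followed by Atm (22.5 ± 6.05), Trip13 (22.3 ± 4.89), Atr (21.2 ± 4.24), Brca1 (18.1 ± 4.40), Trp53 (14.2 ± 1.05) and Chek1 (12.6 ± 2.94). Neighbours in this order overlapped in range down to Chek1. Chek2 (5.69 ± 1.42), Trp63 (0.166 ± 0.0237) and Trp73 (0.0708 ± 0.0428) followed without overlap. The order was different in WT Spc, where Atr stood first at 58.1 ± 11.2 RPKM (n = 4) and Topbp1 next at 23.1 ± 8.12, without overlap. Every other member lay below 10 RPKM there, from Trip13 (5.91 ± 2.58) and Trp53 (5.71 ± 1.11) through Brca1 (2.42 ± 1.47), Atm (1.99 ± 1.49), Chek1 (1.85 ± 0.894) and Chek2 (1.01 ± 0.449) to Trp63 (0.250 ± 0.0853) and Trp73 (0.0550 ± 0.0282). In KO Spc the levels were closer together, with Topbp1 first (23.4 ± 2.59 RPKM) and Atr (17.1 ± 3.31), Trip13 (16.04 ± 4.68) and Atm (15.3 ± 1.53) next. Topbp1 did not overlap with Atr. From Atr on, each member down to Trp53 (11.7 ± 2.07) and Brca1 (10.98 ± 2.10) overlapped with the next, while Chek1 (7.83 ± 2.58) overlapped with Brca1 and lay apart from Chek2 (4.45 ± 0.626). Trp63 had 0.671 ± 0.287 and Trp73 0.0669 ± 0.0291 RPKM in KO Spc. In KO Spg the order ran from Trip13 (25.1 ± 3.66 RPKM), Topbp1 (23.3 ± 3.03) and Atm (23.3 ± 4.59) through Brca1 (17.7 ± 1.34), Trp53 (14.6 ± 2.41) and Chek1 (14.2 ± 0.946) to Atr (14.003 ± 3.58), with overlap between neighbours. Chek2 (6.26 ± 1.20) lay apart from these and from Trp73 (0.118 ± 0.0392) and Trp63 (0.0779 ± 0.00991), which overlapped with each other. The order depends on the length used. With the longest coding transcript as the length, Atr ranked first in WT Spg (61.9 ± 12.4 RPKM) with Topbp1 after it, and moved from rank 7 to rank 2 in KO Spg (40.8 ± 10.4 RPKM). In KO Spc Atr then had 49.8 ± 9.65 and Topbp1 50.3 ± 5.57 RPKM, and in WT Spc Trp53 had 12.4 ± 2.41 RPKM and so lay above 10.

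**Figure D1:**
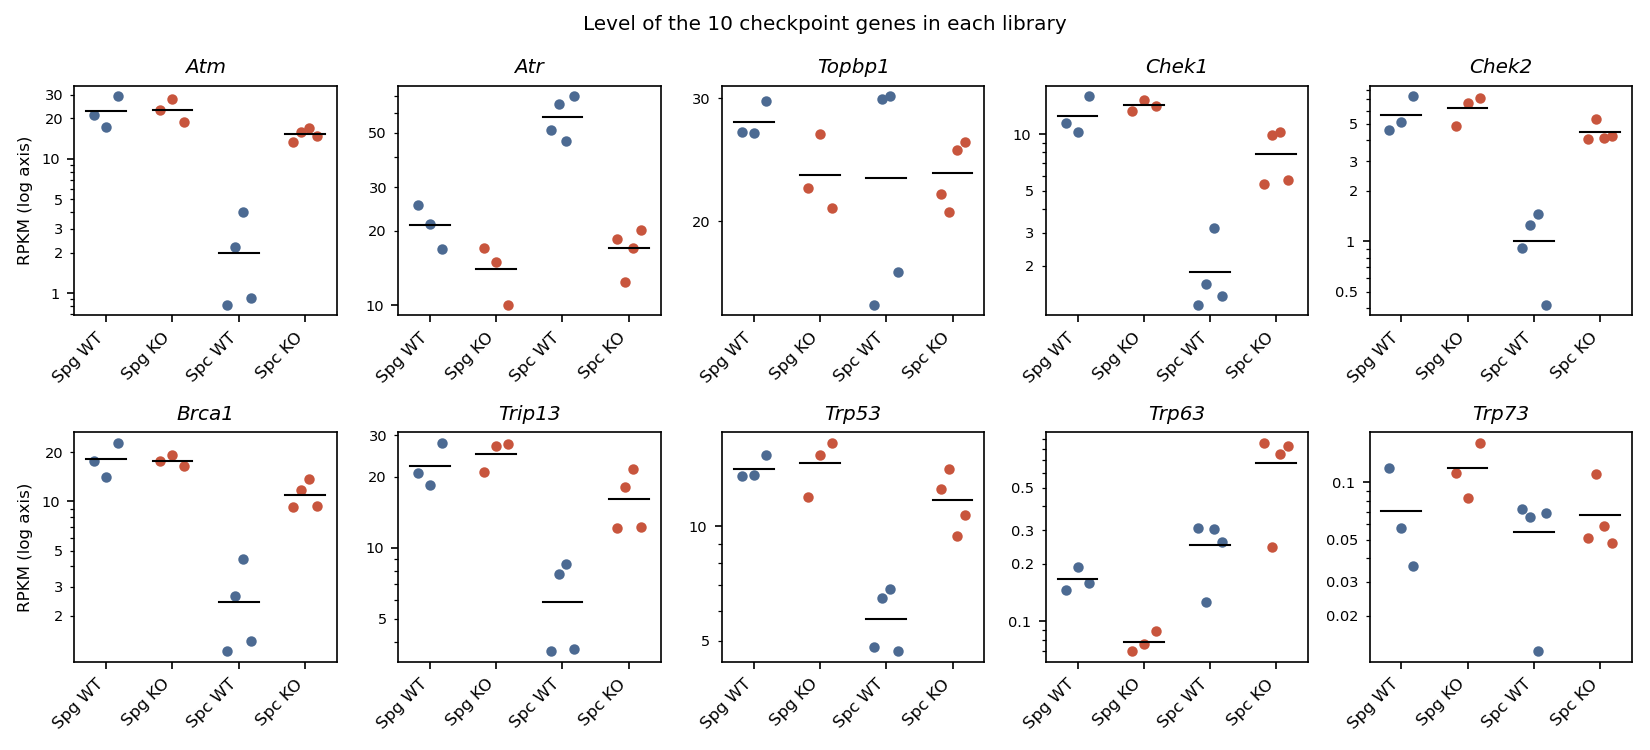
RPKM of each member (y axis, log scale) in each of the 14 libraries, by group (x axis), with 1 point per library and a line for the group mean. Mean Atm is 15.3 RPKM in KO Spc and 1.99 RPKM in WT Spc, without overlap, whereas mean Atr is 17.1 RPKM in KO Spc and 58.1 RPKM in WT Spc.

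The first question was whether loss of DNMT3C changed these genes in Spc. In Spc 7 of the 10 genes were called changed at an adjusted p under 0.01 in edgeR's quasi-likelihood test, 6 higher in KO (Atm, Brca1, Chek2, Chek1, Trip13 and Trp53) and 1 lower (Atr). The same 7 were the members whose KO and WT libraries did not overlap. Change was the rule in this comparison: 58.8% of all 21919 genes tested were called, 28.0% higher and 30.7% lower, and in 68.4% the groups did not overlap. The share of called members is thus close to that of all genes. Their direction leaned to the KO side, with a median log2 change of 1.46 for the members and 0.107 for all genes.

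Of the sensor kinases, ATM's gene showed the largest rise of the members. In the order of replicates 1 to 4, the level of Atm was 121, 143, 155 and 136 CPM in KO and 7.504, 18.9, 35.1 and 8.57 CPM in WT. Every KO library was above every WT library, and WT replicate 3 was the highest of its group. The rise was 7.90-fold (log2 2.98, SE 0.47, edgeR adjusted p 3.49e-04). Atr moved the other way, with 382, 257, 355 and 424 CPM in KO and 1073, 1280, 924 and 1483 CPM in WT. All 4 KO libraries were below the lowest WT library, and the fall was 3.36-fold (log2 -1.75, SE 0.23, edgeR adjusted p 1.44e-04). Topbp1, which encodes the activator of ATR, had 213, 202, 250 and 259 CPM in KO and 152, 281, 286 and 170 CPM in WT. Its groups overlapped, with WT replicates 1 and 4 below and WT replicates 2 and 3 above all KO libraries, and it was not called (log2 0.06, SE 0.24, edgeR adjusted p 0.843).

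Both effector kinases were higher in every KO library than in any WT library. Chek1 had 22.0, 40.0, 41.8 and 23.6 CPM in KO and 5.11, 6.18, 12.4 and 5.77 CPM in WT. Within the KO group, replicates 2 and 3 were higher than replicates 1 and 4, and all were above the WT libraries. The rise was 4.32-fold (log2 2.11, SE 0.38, edgeR adjusted p 7.92e-04). Chek2 had 10.6, 14.1, 10.9 and 11.4 CPM in KO and 2.45, 3.12, 3.66 and 1.12 CPM in WT. The KO values were tight and did not overlap with WT, where replicate 4 was lowest at 36 counts. The rise was 4.52-fold (log2 2.18, SE 0.40, edgeR adjusted p 8.66e-04).

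Of the members that act on meiotic axes, Brca1 and Trip13 were called higher, unlike Atr and Topbp1. Brca1 had 68.2, 87.2, 103 and 71.3 CPM in KO and 9.18, 18.8, 31.8 and 10.7 CPM in WT. The groups did not overlap, and replicate 3 was the highest library in each of them. The rise was 4.66-fold (log2 2.22, SE 0.39, edgeR adjusted p 6.89e-04). Trip13 had 36.6, 55.1, 66.3 and 37.8 CPM in KO and 11.2, 22.4, 25.004 and 11.6 CPM in WT. Its lowest KO library stood above its highest WT library by a smaller margin than those of Atm. It rose 2.78-fold (log2 1.48, SE 0.34, edgeR adjusted p 0.00338).

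In the p53 family, Trp53 was called, Trp63 was called under some settings and Trp73 was not called. Trp53 had 44.0, 49.9, 33.6 and 38.7 CPM in KO and 17.3, 21.9, 23.3 and 17.0 CPM in WT. The groups did not overlap, and the rise was 2.09-fold (log2 1.06, SE 0.23, edgeR adjusted p 0.00223). Trp63, best known for guarding oocytes, had 6.27, 1.80, 5.58 and 6.17 CPM in KO and 2.31, 0.880, 2.14 and 1.96 CPM in WT. KO replicate 2 fell within the WT range while the other 3 KO libraries were above it, and the change of log2 1.44 (SE 0.49) missed the threshold (edgeR adjusted p 0.0220). Trp63 was called without KO replicate 2, with scaling by library totals (edgeR adjusted p 0.00378), with the replicate block (0.00931) and by DESeq2 (adjusted p 0.00654). Trp73 was near the limit of what these libraries measure, with 13 to 34 counts in KO and 3 to 13 counts in WT, and its levels of 0.236 to 0.532 CPM in KO and 0.0607 to 0.357 CPM in WT overlapped (log2 0.32, SE 0.55, edgeR adjusted p 0.620).

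The calls of Trp53 and Trip13 depended on single libraries: 5 members were called without WT replicate 1, without WT replicate 4 or with replicates 1 and 4 summed, and 6 without KO replicate 3, where Trip13 was lost. Scaling by library totals moved the median log2 change of all genes from 0.107 to 0.794 and the share of calls that were higher from 47.7% to 62.3%, but left each of the 10 directions as it was (Atm 3.54, Atr -1.04). With KO replicate 3, the KO library with the lowest stromal marker level, as the only KO library, the log2 change was 3.15 for Atm, -1.73 for Atr, 2.51 for Chek1, 2.08 for Chek2, 2.55 for Brca1, 1.92 for Trip13 and 0.77 for Trp53. This fit, which assumes that the lone library varies like the others, called 0 of 10 members (edgeR adjusted p 0.0211 to 0.191 for those 7) and 1271 of 25483 genes.

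**Figure D2:**
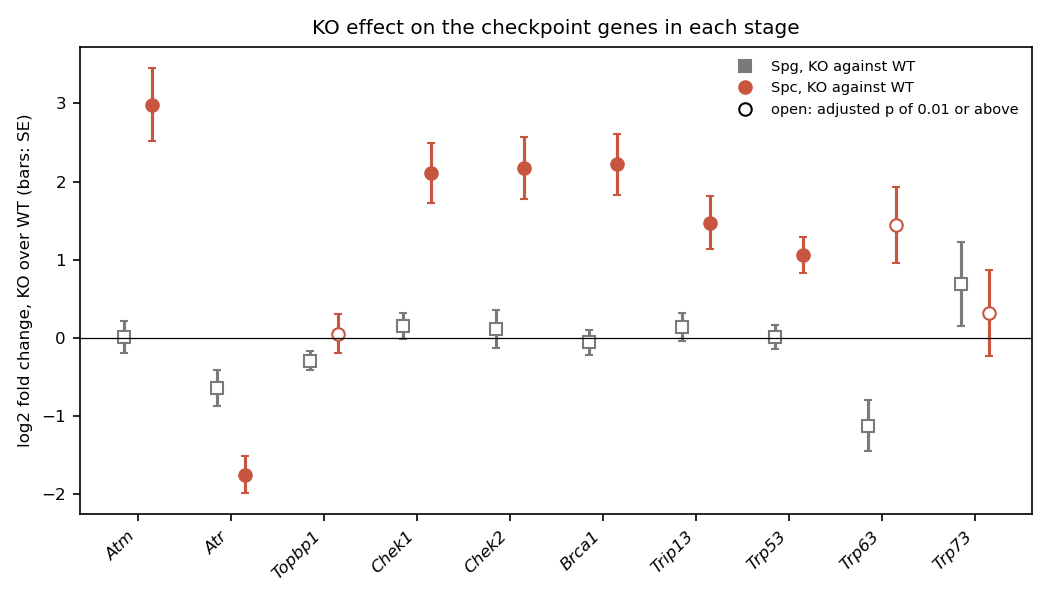
Log2 change of each member (y axis, KO over WT) in Spg (squares) and in Spc (circles), with the standard error of the fit as bars and open symbols where the adjusted p was 0.01 or above. In Spc Atm lies at 2.98 and Atr at -1.75, and in Spg no member was called, with values from -1.12 (Trp63) to 0.69 (Trp73).

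The second question was whether the genes had changed in Spg, a sort that held early meiotic markers too. In Spg 0 of 10 members were called, where 0.0436% of 20659 genes were called at all. At an unadjusted p under 0.05 edgeR gave 2 members, Trp63 and Atr, and DESeq2 likewise called 0 with 2 at an unadjusted p under 0.05. Of 20659 genes, 1509 lay under that limit in edgeR and 1615 in DESeq2. The median log2 change of the members was 0.016. In the order of replicates 1 to 3, the level of Trp63 was 0.686, 0.749 and 0.892 CPM in KO and 1.501, 2.01 and 1.56 CPM in WT, or 34 to 42 and 71 to 81 counts. All KO libraries were below all WT libraries (log2 -1.12, SE 0.33, edgeR adjusted p 0.293). Topbp1 had 295, 354 and 281 CPM in KO and 368, 375 and 392 CPM in WT, also without overlap (log2 -0.29, SE 0.13, edgeR adjusted p 0.692). Non-overlap with KO below was found for 7.08% of all genes tested in Spg.

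Atr had 473, 418 and 284 CPM in KO Spg and 734, 630 and 469 CPM in WT Spg. The groups overlapped by 1 library each, with KO replicate 1 just above WT replicate 3 (log2 -0.64, SE 0.23, edgeR adjusted p 0.475, or 0.0333 with the replicate number as a block). Within each replicate number KO was below WT. Atm, which rose most in Spc, had 281, 341 and 232 CPM in KO Spg and 267, 223 and 353 CPM in WT Spg. Its groups fully overlapped (log2 0.02, SE 0.20, edgeR adjusted p 1.00). Chek1 (0.15), Chek2 (0.11), Trip13 (0.14), Trp53 (0.01) and Brca1 (-0.06) had log2 changes smaller than their standard errors of 0.16 to 0.24 in Spg. Trp73 had a log2 change of 0.69 with an SE of 0.54 on 11 to 50 counts. Changes within these errors were not detectable.

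An interaction term over the 14 libraries tested whether the effect of KO differed between Spc and Spg. It draws on the same libraries as the comparisons above. For 5 of 10 members the change was more positive in Spc than in Spg at an adjusted p under 0.01, against 11.1% of 24340 genes. They were Atm (log2 difference 2.89, SE 0.61, edgeR adjusted p 0.00260), Trp63 (2.51, SE 0.62, 0.00579), Brca1 (2.21, SE 0.52, 0.00432), Chek2 (2.00, SE 0.51, 0.00685) and Chek1 (1.90, SE 0.48, 0.00655). For Trp63 the fitted changes had opposite signs, with KO lower in Spg and higher in Spc. Atr (-1.17, edgeR adjusted p 0.0113), Trp53 (0.99, 0.0180) and Trip13 (1.27, 0.0374) missed the threshold in edgeR. DESeq2's Wald test called 7 members, with Atr (adjusted p 0.00466) and Trp53 (0.00205) added to the 5, and the replicate block added Trip13 (edgeR adjusted p 0.00568). The calls of these 3 thus depend on the fit. Over all 24340 genes DESeq2 called 9865 and the replicate block 5977, against 6251 in the main fit. Scaling by library totals called 4252 genes more positive in Spc, against 2690 in the main fit. Topbp1 differed by 0.28 and Trp73 by -0.43. With replicates 1 and 4 of Spc summed, 2 members were called, Atm and Brca1. Leaving out 1 library gave 2 to 7 called members. The count was 2 without any 1 of the KO Spg libraries or without WT Spg replicate 3 and 3 without WT Spc replicate 1 or 4. Atm and Brca1 were called in each of these 14 fits, with edgeR adjusted p at most 0.00762 and 0.00980.

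Set against spermatogonia of the same genotype, most members were lower in WT Spc than in WT Spg, and 1 member was called in KO. Between WT Spg and WT Spc 6 members were called lower, against 23.3% of genes. The log2 changes were -3.50 for Atm (SE 0.45), -2.90 for Brca1 (SE 0.37), -2.76 for Chek1 (SE 0.34), -2.50 for Chek2 (SE 0.36), -1.92 for Trip13 (SE 0.33) and -1.31 for Trp53 (SE 0.21). Atr was called higher, by log2 1.45 (SE 0.24), against 29.2% of genes, although scaling by library totals ended this call. That scaling called 8724 of 24340 genes lower and 4541 higher between WT stages, against 5674 and 7103 in the main fit. Between KO Spg and KO Spc 1 member was called, Trp63, higher by log2 3.10 (SE 0.48, edgeR adjusted p 0.00148), where 3.01% of genes were called higher. That call was lost without any 1 of the 3 KO Spg libraries. The other 9 members had log2 changes from -0.86 (Chek1) to 0.29 (Atr) in KO. These stage comparisons share their libraries with the genotype comparisons and are not independent of them.

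Ratios of members within a library do not depend on the scaling between libraries. The log2 ratio of Atm to Atr counts in Spc was -1.66, -0.85, -1.20 and -1.64 in KO and -7.16, -6.08, -4.72 and -7.43 in WT. The groups did not overlap, and the mean difference was 5.01 (KO -1.34 ± 0.39, WT -6.35 ± 1.23, SD, n = 4 each). A two-sided exact permutation test gave p = 0.0286, its minimum for 4 against 4 libraries, and 0.114 after adjustment over the 8 ratio tests. With replicates 1 and 4 summed, the difference was 4.80 without overlap and p was 0.1, the smallest possible. The log2 ratio of Brca1 to Topbp1 was -1.65, -1.21, -1.29 and -1.86 in KO Spc and -4.04, -3.90, -3.17 and -3.99 in WT Spc. Again the groups did not overlap, with a difference of 2.27 (exact permutation p 0.0286, adjusted 0.114). Chek2 to Chek1 changed by 0.147 in Spc (exact permutation p 0.8) and by -0.056 in Spg (p 0.8), with overlap between the groups in both stages. These designs are too small to show that the ratio of the effector kinases is the same, and the sign of its difference turned in some fits without 1 library. Trp63 to Trp53 differed by 0.307 in Spc (exact permutation p 0.514). In Spg it was -6.48 ± 0.12 in KO and -5.37 ± 0.24 in WT, without overlap (difference -1.11, exact permutation p 0.1, the smallest that 3 against 3 allow, adjusted 0.267). Atm to Atr differed by 0.678 and Brca1 to Topbp1 by 0.257 in Spg, each with overlap between the groups (exact permutation p 0.2). Within replicate numbers, both ratios were higher in KO in 3 of 3 pairs, by 0.709, 1.21 and 0.117 for Atm to Atr and by 0.264, 0.461 and 0.0473 for Brca1 to Topbp1. Trp63 to Trp53 was lower in 3 of 3 pairs. An exact sign-flip test of these 3 ratios gave p 0.25, the smallest that 3 pairs allow.

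**Figure D3:**
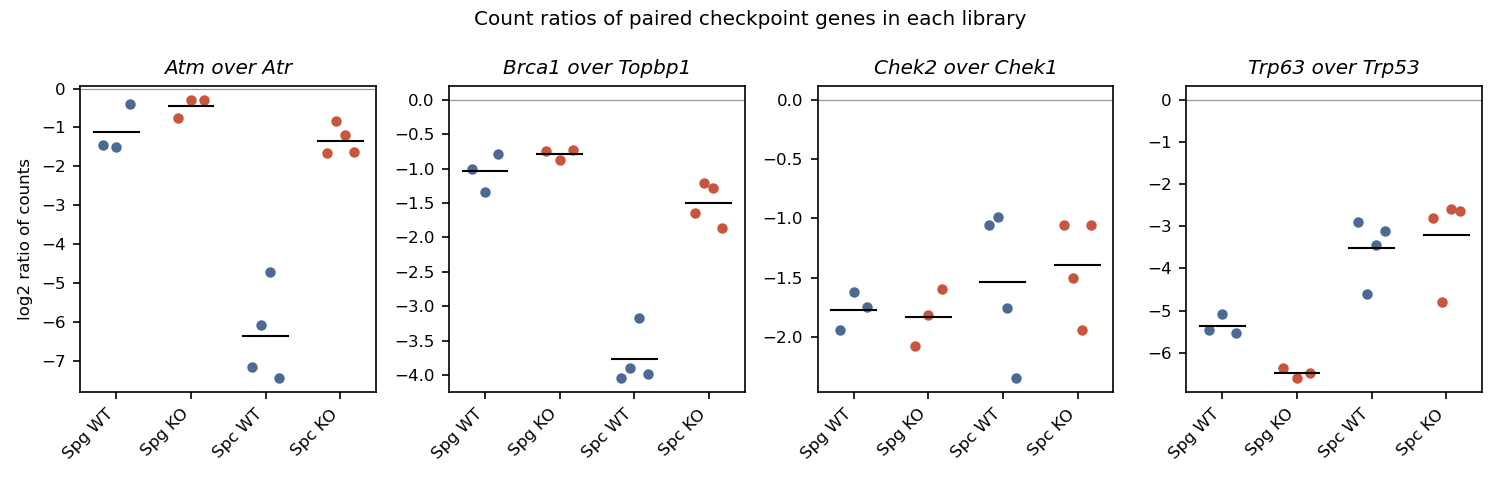
Log2 ratio of the counts of paired members (y axis) in each library of the 4 groups (x axis), with bars for the group means. The Atm to Atr ratio lies between -7.43 and -4.72 in WT Spc and between -1.66 and -0.85 in KO Spc, and Chek2 to Chek1 overlaps between genotypes in both stages.

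ATR, TOPBP1 and BRCA1 act in the silencing of the sex chromosomes, so the share of gene counts from X- and Y-linked genes was read beside them. In Spc the X-linked share was 3.30% ± 0.38 in KO and 0.270% ± 0.237 in WT (SD, n = 4 each), without overlap. A two-sided exact permutation test gave p = 0.0286, its minimum here, and 0.0571 after adjustment over 4 tests. WT replicate 3 was the highest WT library at 0.625%. The Y-linked share was 0.107% ± 0.0104 in KO and 0.0110% ± 0.00786 in WT, with the same exact p values. With replicates 1 and 4 summed, the differences of 2.88 and 0.0955 percentage points had p 0.1 each, the smallest possible. Gene by gene, 621 of 912 X-linked genes tested were called higher in KO Spc and 72 lower, with a median log2 change of 2.98 against 0.0184 for the other genes. Of 27 Y-linked genes 18 were called higher and 5 lower. Over all genes tested in Spc, 28.0% were called higher and 30.7% lower. In Spg the X-linked share was 2.89% ± 0.17 in KO and 2.56% ± 0.39 in WT (n = 3 each, exact permutation p 0.3). There 0 of 863 X-linked genes were called by edgeR, against 0.0436% of all genes. The markers of pachytene cells, in which silencing takes place, moved with genotype in the same libraries, and their part in this difference was not tested.

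**Figure D4:**
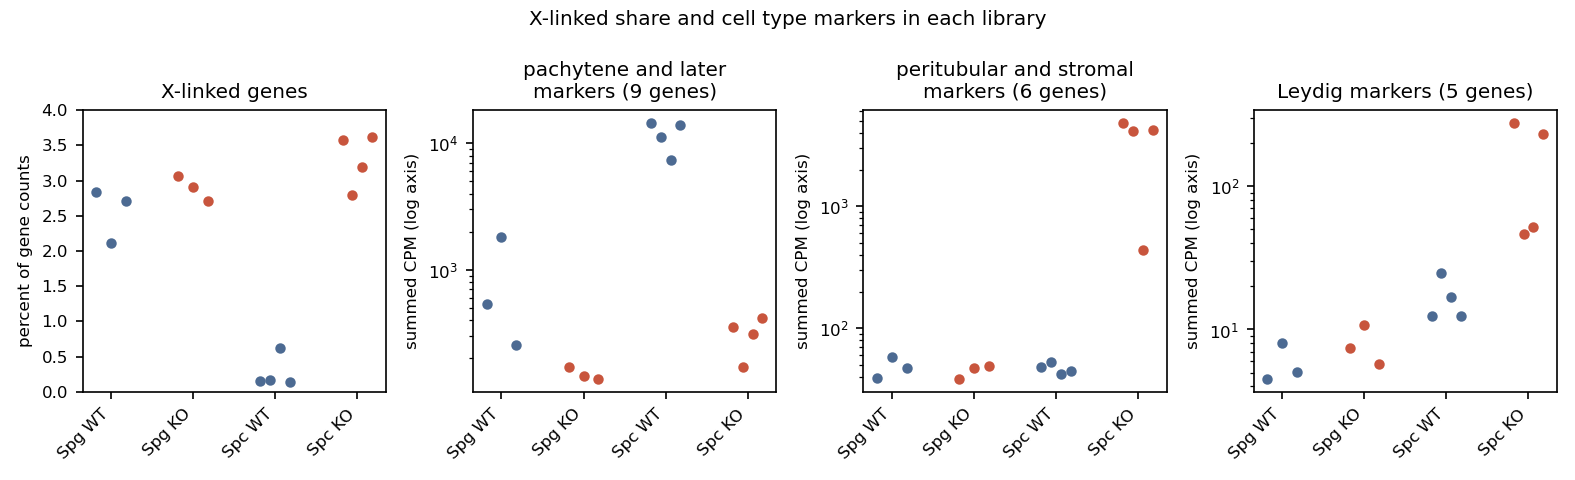
Share of gene counts from X-linked genes (percent) and summed CPM of pachytene, stromal and Leydig markers (log scale) in each library, by group, with 1 point per library. The X-linked share lies at 2.80 to 3.62% in KO Spc and 0.134 to 0.625% in WT Spc, and the pachytene markers at 170 to 413 CPM and 7393 to 14431 CPM.

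Other genes of the pathway were read from 5 lists of 58 genes, all of which were tested. In Spg 0 of 58 were called by edgeR, with 3 at an unadjusted p under 0.05, where 1509 of 20659 genes lay under that limit. DESeq2 called 1 (H2afx, listed as H2ax) and 514 genes over all. H2afx, the histone variant phosphorylated around breaks, had 33.6 ± 5.04 CPM in KO and 81.5 ± 34.6 CPM in WT Spg (log2 -1.28, SE 0.29, edgeR adjusted p 0.149). Pkmyt1, an inhibitory kinase of CDK1, had a log2 change of -1.08 (SE 0.38, edgeR adjusted p 0.474). Both genes were highest in WT replicate 2 (121 CPM for H2afx and 73.7 CPM for Pkmyt1), the Spg library in which the pachytene markers were highest too, and the part of those markers was not tested. Without that library the log2 change was -0.87 for H2afx and -0.49 for Pkmyt1 (edgeR adjusted p 0.186 and 1.00). In Spc 29 of 58 were called, 19 higher and 10 lower, against 58.8% of all genes, and their median log2 change was 0.38.

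Of 14 p53 regulators and targets 7 were called higher and 3 lower in Spc, with a median log2 change of 1.32 against 0.107 for all genes. Over all genes tested in Spc, 28.0% were called higher and 30.7% lower, the background of this count and of those of the lists that follow. The receptor gene Eda2r had 8.59 ± 7.76 CPM in KO and 0.168 ± 0.106 CPM in WT (log2 5.63, SE 0.96, edgeR adjusted p 5.52e-04), with 1 to 14 counts in WT. Eda2r is X-linked and so belongs to the genes whose summed share was higher in KO Spc. Phlda3, an inhibitor of AKT, had 26.4 ± 11.3 CPM in KO and 1.45 ± 1.07 CPM in WT (log2 4.18, SE 0.63). Cdkn1a, the inhibitor of cyclin-dependent kinases, had 38.8 ± 32.0 CPM in KO and 2.78 ± 1.40 CPM in WT (log2 3.79, SE 0.71). The KO libraries of these genes spread widely, from 9.24 to 71.4 CPM for Cdkn1a, and all 3 genes were higher in KO replicates 1 and 4 than in KO replicates 2 and 3. The stromal, Leydig and leukocyte markers were higher in the same KO group, with the Leydig sum at 276 and 231 CPM in KO replicates 1 and 4 and at 46.6 and 52.3 CPM in KO replicates 2 and 3, and their part in these rises was not tested. With KO replicate 3, the library with the lowest stromal level, as the only KO library, the log2 change was 3.41 for Eda2r (1.83 CPM in that library), 3.11 for Phlda3 (12.6 CPM) and 2.28 for Cdkn1a (13.4 CPM), with edgeR adjusted p of 0.0311, 0.0358 and 0.0357. The genes that fell encode negative regulators of p53. Mdm2, its ubiquitin ligase, had 120 ± 22.3 CPM in KO and 305 ± 43.1 CPM in WT (log2 -1.34, SE 0.21), and Ppm1d, a phosphatase of the pathway, 53.4 ± 6.48 and 166 ± 63.3 CPM (log2 -1.64, SE 0.30). The third was Mdm4 (log2 -0.85, SE 0.19).

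Of the 7 genes of HORMA proteins, their partners and the Y-linked zinc fingers, 3 were called higher and 1 lower in Spc. Zfy2 had 97.9 ± 40.9 CPM in KO and 2.86 ± 3.06 CPM in WT (log2 5.09, SE 0.74), and Zfy1 74.5 ± 29.4 and 2.87 ± 2.62 CPM (log2 4.69, SE 0.64). Zfy1 and Zfy2 are similar in sequence, so reads may have been shared between them. Mad2l1bp, the adaptor that brings HORMA proteins to TRIP13, fell from 12.03 ± 2.28 CPM in WT to 4.08 ± 0.967 CPM in KO (log2 -1.56, SE 0.32). Hormad1, the axis protein that TRIP13 removes, had 328 ± 103 CPM in KO and 302 ± 79.8 CPM in WT and was not called (log2 0.12, SE 0.29, edgeR adjusted p 0.727).

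Of 15 sensors and loaders 4 were called higher (Clspn, Tipin, Rad50 and Etaa1) and 1 lower (Rad9b). Clspn, the adaptor through which ATR reaches CHEK1, had 89.4 ± 27.3 CPM in KO and 21.7 ± 11.9 CPM in WT (log2 2.04, SE 0.41). Of 12 mediators and recombination partners 1 was called higher, the BRCA1-associated helicase gene Brip1 (log2 3.01, SE 0.44). Among these mediators 3 were called lower, Babam1 (-1.37, SE 0.24), a subunit of a BRCA1 complex, H2afx (-1.33, SE 0.32) and Mdc1 (-1.30, SE 0.23), the reader of phosphorylated H2AX. Of 10 cell cycle targets of the checkpoint kinases 4 were called higher and 2 lower. Pkmyt1 fell from 156 ± 31.4 CPM in WT to 17.9 ± 3.94 CPM in KO (log2 -3.12, SE 0.24, edgeR adjusted p 5.95e-06), and Cdk2 was the other called lower (log2 -1.24, SE 0.23). Wee2 had a fitted log2 change of 3.76 but only 12 to 42 counts in KO and 0 to 5 in WT. Mdc1, Brip1, Clspn, Rad50, Etaa1, Tipin, Rad9b, Cdk2, Mdm4 and Hormad1 were named after their values were seen.

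The difference between stages was called for 15 of the 58 genes, 9 more positive in Spc and 6 more negative, against 25.7% of all genes called in either direction. The largest were Eda2r (log2 difference 5.40, SE 1.096), Zfy1 (4.33, SE 0.80), Zfy2 (4.30, SE 0.93), Phlda3 (3.90, SE 0.77) and Cdkn1a (3.67, SE 0.92), and the most negative were Pkmyt1 (-2.12, SE 0.45), Ppm1d (-1.65, SE 0.36) and Mad2l1bp (-1.65, SE 0.41). The count of 29 in Spc ranged from 24 to 33 when 1 library was left out, and was 19 with replicates 1 and 4 summed and 34 with DESeq2.

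**Figure D5:**
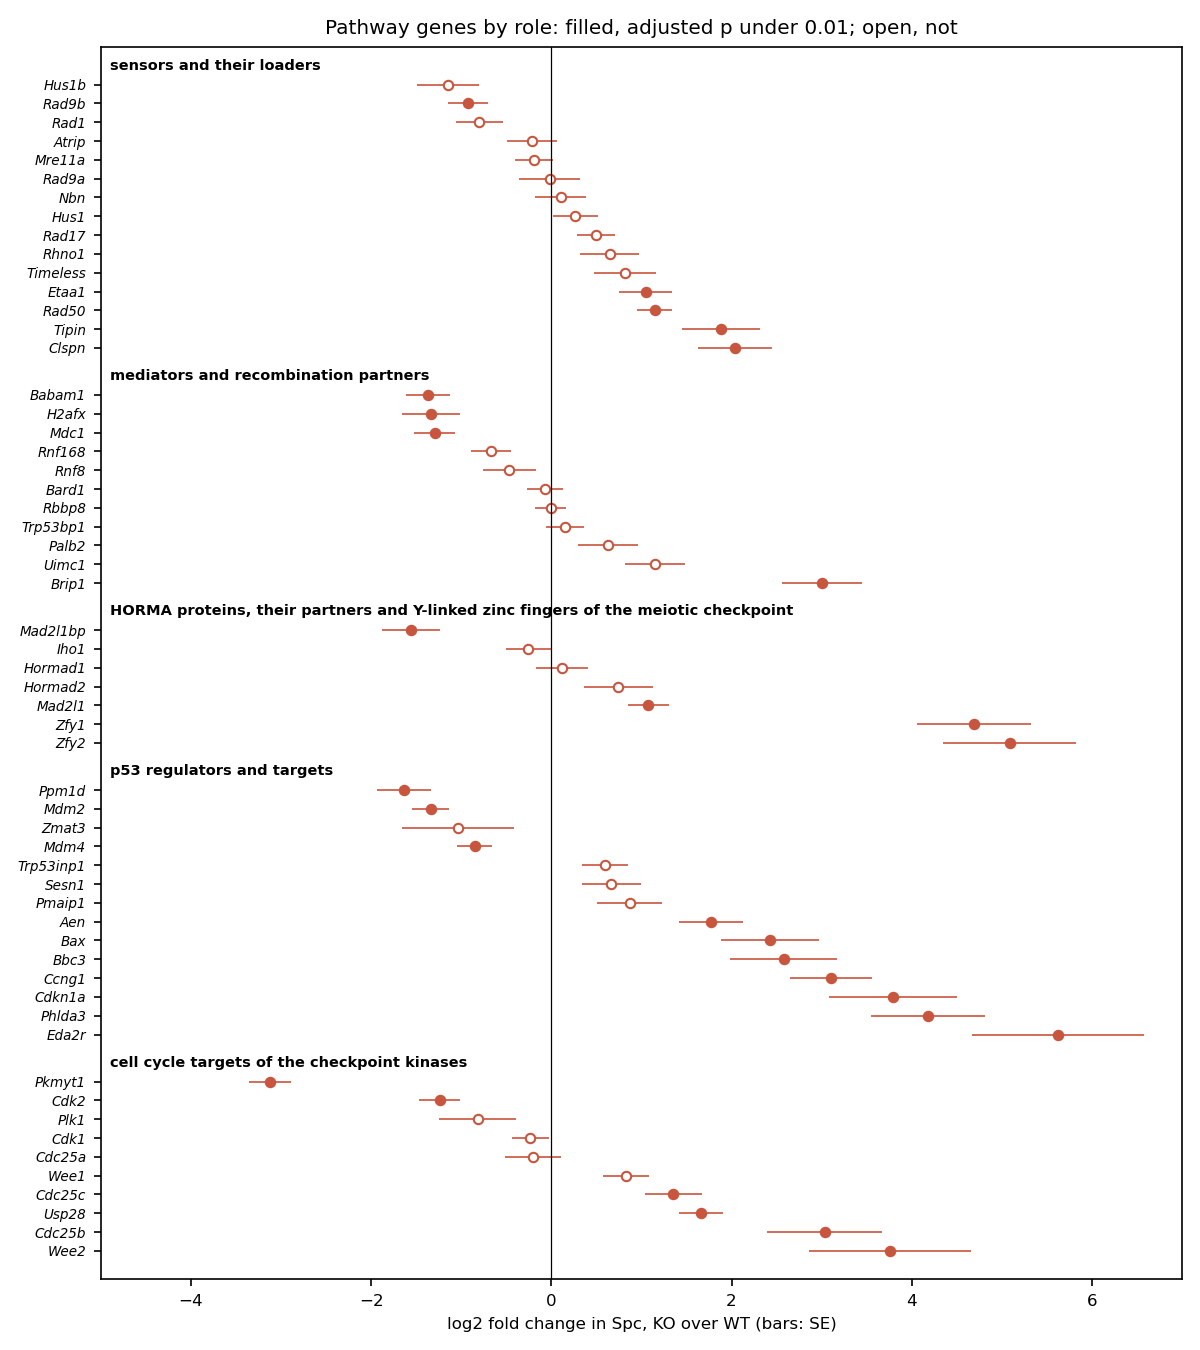
Log2 change in Spc (x axis, KO over WT) of the pathway genes by list (1 of the 58 is not shown), with the standard error as bars and filled points for genes called at an adjusted p under 0.01. Called values run from -3.12 (Pkmyt1) to 5.63 (Eda2r), and the p53 list holds 7 called higher and 3 called lower.

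Across the 14 libraries the members differed in profile, and genes outside the set lay closer to each member than the other members did. The likeness of a pair was measured as the root mean square difference of log2 CPM after centring each gene on its own mean, as a description. Chek1 and Brca1 were the closest members (0.241), followed by Chek2 and Trip13 (0.352) and Atm and Brca1 (0.387), while Atm and Atr were the farthest apart (2.50). Among all features the profiles closest to Atm were Rel (0.183) and Papss1 (0.187), to Atr Mapk6 (0.173) and Sbf2 (0.174), and to Topbp1 Fra10ac1 (0.132). Those closest to Chek1 were Uhrf1bp1 (0.0957) and Gm15127 (0.146), and those closest to Chek2 Ct55 (0.188) and Cgas (0.197). For Brca1 they were Zfyve9 (0.132) and Esco2 (0.142), and for Trip13 Stk32c (0.136) and Ttc19 (0.137). For Trp53 they were Tecr (0.123) and Man2b1 (0.139), and for Trp63 9530052C20Rik (0.397) and Klhl7 (0.400). No profile is named for Trp73, whose levels lie near the pseudocount of 0.5 CPM that sets such distances. The libraries share the 4 groups and are not independent points.

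Because the study concerns young retrotransposons, copies of transposable elements inside the members were counted from the deposited TPM of single copies, which sum over such copies alone. The gene bodies held 21 (Trp53) to 187 (Atr) annotated copies each. Copies of the L1 subfamilies counted here as young were present in Trp63 (4), Atr (3), Trip13 (2), Atm (1) and Chek1 (1). All were fragments of 91 to 1576 bases, from L1Md_F2, L1Md_F3 and L1Md_T. The study required longer L1 copies for its DNMT3C targets. The L1 families it names as raised in KO Spg are L1MdTf, L1MdA and L1MdGf, without the F families. No member held a copy of the young ERVK subfamilies searched (IAP, MMERVK10C and RLTR10C). Of the L1 copies, 2 reached a mean of 0.5 TPM in a group, and both lie in sense to the gene. The L1Md_F2 copy in Atr at chr9:95946664-95947061 had a mean of 1.99 TPM in KO Spc (0.538 to 3.05) and 1.30 TPM in WT Spc (0 to 2.76), and 1.87 TPM in KO Spg against 4.93 TPM in WT Spg. The L1Md_F2 copy in Trip13 at chr13:73925837-73927412 had 2.00 TPM in KO Spc (1.65 to 2.38) and 0.955 TPM in WT Spc (0.261 to 1.74), and 4.64 TPM against 4.14 TPM in Spg. The single young copy in Atm was at 0 TPM in all libraries. Summed over all its copies Atm held 78.6 TPM in KO Spc and 19.4 TPM in WT Spc, and Atr 179 and 83.2 TPM. The sum was higher in KO Spc for all 10 members, against 69.6% of 16899 genes with such copies, Topbp1 (93.6 against 35.0 TPM) and Trp73 (0.918 against 0.409 TPM) included, so its direction did not follow that of the gene count for Atr, which was lower. In Spg the sum was lower in KO for Brca1, Chek2, Trip13, Trp53 and Trp73 and higher for the other members, against 43.9% of 15504 genes higher. Reads of unspliced RNA of the gene and reads that start in the copy cannot be told apart in these sums.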

How the data were processed

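Per the labels and the study's methods, the authors trimmed reads with cutadapt 4.0, aligned them with STAR 2.7.3a to GRCm38 with GENCODE genes, allowing many alignments per read, and assigned them with TEtranscripts, with strand, to genes and subfamilies of transposable elements. The deposited values are raw counts, 1 table per stage. The deposited TPM values of single copies, made by the authors with TElocal, sum to a constant over copies alone and were only described. The tables also hold fold changes and p-values of DESeq2 1.44.0 runs by the authors, which were not used. The Spg columns numbered rep4 belong to the samples titled rep3 and are called replicate 3. A further Spg library of each genotype was excluded by the authors and not analysed here.

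Counts were fitted with edgeR 4.0.16 in R 4.3.3 by the two-sided quasi-likelihood F-test, after filterByExpr and with TMM factors computed over genes and subfamilies. Benjamini-Hochberg adjustment ran over all features tested, and the threshold for a call was an adjusted p of 0.01. Stages were fitted separately. The interaction and the stage contrasts used all 14 libraries in 4 groups and the 31111 genes present in both tables. The shares of called genes count genes alone. Ratios used counts plus 0.5, and ratios and shares were tested by exact permutation in SciPy 1.17.1 (Python 3.11.15). Nearest profiles used log2 CPM with a pseudocount of 0.5. The fits were tested on simulated counts. The widest 95% Wilson half-width of counting error was 9.01 counts per 1000000 for a member (Atr) and 0.00536 percentage points for the X-linked share. Relative to level, counting error is larger for members with few counts, such as Trp73 with 3 to 50 per library.

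The 10 genes, the pathway and marker lists and the tests were chosen with earlier results of these data known. Named genes are the 10 members, Dnmt3c, markers, the 2 nearest profiles of each member (not printed for Trp73, which is near the pseudocount) and, per genotype comparison, up to 6 called pathway genes with the largest rise and up to 6 with the largest fall, or the 3 with the smallest p where none was called. Same-numbered KO and WT libraries deviated together in Spg (correlations 0.829, 0.185 and 0.372 over features), so the numbers were taken to pair them, although KO replicate 2 correlated more with WT replicate 3 (0.377) than with its own number. They did not in all of Spc (0.0626, 0.236, -0.0495 and 0.124). The alternatives were DESeq2 1.42.0 and its size factors, scaling by library totals or by TMM over genes, a filter at 1 count or at a mean of 50 counts, calls at 0.05 or at a minimum log2 change of 1, a pseudocount of 1 in ratios, the replicate block, replicates 1 and 4 of Spc summed and each library left out. The fit with KO Spc replicate 3 as the only KO Spc library, the ratios within replicate numbers of Spg, and the ratios and shares with replicates 1 and 4 of Spc summed were chosen after seeing the data. Values of 2 genes that the rules for naming genes picked are not reported here.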

Additional observations from a re-analysis of the deposited data

Results flagged for a closer look

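Single libraries stood apart from the other 3 of their group, by a gap that exceeded Dixon's 95% limit, in 6 of 32 groups of 4 Spc libraries tested. Chance alone flags about 1 in 20 independent groups. The groups here reuse the same Spc libraries, and Trp63 enters both a level and a ratio, so the count cannot be set against that rate. KO replicate 2 had 1.80 CPM of Trp63, the lowest of its group, 0.532 CPM of Trp73, the highest, and a log2 ratio of Trp63 to Trp53 of -4.79, the lowest. WT replicate 3 was the highest of its group with 12.4 CPM of Chek1, a log2 ratio of Brca1 to Topbp1 of -3.17 and an X-linked share of gene counts of 0.625%. The same library had the lowest summed level of pachytene markers of the WT Spc libraries (7393 CPM) and the highest of spermatid markers (1277 CPM). The part of these marker levels in the 3 values was not tested.

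For 5 members the effect of KO differed between Spc and Spg in the interaction test, by log2 2.89 for Atm, 2.51 for Trp63, 2.21 for Brca1, 2.00 for Chek2 and 1.90 for Chek1. The count fell to 2 with replicates 1 and 4 of Spc summed and ran from 2 to 7 without 1 library. Among the named pathway genes the difference was 5.40 for Eda2r, 4.33 for Zfy1, 4.30 for Zfy2, 3.90 for Phlda3 and 3.67 for Cdkn1a. It was -2.12 for Pkmyt1, -1.65 for Ppm1d, -1.65 for Mad2l1bp, -1.40 for Babam1 and -1.17 for Mdm2.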

How the results depend on the processing

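The 7 member calls in Spc became 5 to 8 and the 7 calls between WT stages stayed 7 when 1 library was left out, while the 5 of the interaction became 2 to 7, or 2 with replicates 1 and 4 of Spc summed and 8 at an adjusted p under 0.05. The 1 call between KO stages became 0 to 1. With the replicate block, 0 members were called in Spg, 8 in Spc (Trp63 added) and 6 in the interaction (Trip13 added), and the log2 change of Trp53 in Spg was -0.000557. Calls among all genes in Spg were 9 in edgeR, 108 with the block, 514 with DESeq2 and 144 with no filter, and DESeq2 called 1 pathway gene there. Pathway calls in Spc fell from 29 to 19 with replicates 1 and 4 summed. KO Spc replicate 3 as the only KO Spc library gave 0 members in Spc, the interaction and between KO stages and 2 pathway genes, in a fit with fewer samples that called 0 of 26039 genes in the interaction and 38 between KO stages. With replicates 1 and 4 of Spc summed, the Atm to Atr and Brca1 to Topbp1 ratios differed by 4.80 and 2.28, Chek2 to Chek1 by -0.0646, and the X- and Y-linked shares by 2.88 and 0.0955 percentage points, none able to reach an exact p below 0.1. DESeq2 called 8 members in Spc (Trp63 added) and 7 in the interaction (Atr and Trp53 added). Over all genes it called 15027 of 21919 in Spc and 9865 of 24340 in the interaction. Some directions turned. Topbp1 had -0.0837 in Spc with replicates 1 and 4 summed. Between KO stages it had -0.0194 with DESeq2 and with its size factors, -0.0816 with library totals, -0.0204 with TMM on genes alone, -0.0431 with no filter and -0.0183 at a mean count of 50. With library totals Trp73 had 0.395 in the interaction (-0.43 as reported) and Trp63 -0.213 between WT stages (0.59 as reported). The ratios within replicate numbers (a replicate block) in Spg have the same mean differences (0.678, -0.056, -1.11 and 0.257) by construction. The exact sign-flip p ran from 0.25 to 0.75. The filter at a mean count of 50 gave no value for Trp73. Leaving out 1 library gave, in Spg, -0.134 to 0.222 for Atm, -0.0295 to 0.304 for Chek2, -0.0820 to 0.158 for Trp53, -0.187 to 0.115 for Brca1 and -0.171 to 0.0673 for the Chek2 to Chek1 ratio. In Spc it gave -0.0255 to 0.463 for Trp73, -0.123 to 0.204 for Topbp1, -0.122 to 0.331 for Chek2 to Chek1 and -0.0606 to 0.834 for Trp63 to Trp53. Between stages it gave -0.825 to 0.0734 for Trp73 in WT and -0.109 to 0.0506 for Topbp1 in KO. The X- and Y-linked differences in Spc ranged from 2.92 to 3.19 and 0.0925 to 0.1004 percentage points, the Atm to Atr ratio from 4.65 to 5.55 and Brca1 to Topbp1 from 2.18 to 2.47, with no overlap, but the smallest p of such a design is 0.0571. The cause of these shifts was not tested. Depth limits Trp73, with 3 to 50 counts per library.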
